A study of Mus musculus with 9 samples.

Results

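The genes described here encode 8 proteins that hepatocytes secrete in the acute phase response, together with the transcription factor that drives many of them and the inhibitor that switches that factor off. They are the 3 fibrinogen chain genes Fga, Fgb and Fgg, haptoglobin (Hp), lipopolysaccharide binding protein (Lbp), the inter-alpha-trypsin inhibitor heavy chains Itih3 and Itih4, the serine protease inhibitor Serpina3n, Stat3 and Socs3. They were picked by symbol, and all 10 were found among the 22701 genes of the deposited table. Bulk RNA came from the livers of 9 mice of 5 weeks, whose strain is given as C57BL/6 and 129svPas. HP1ag_KO livers (n = 3) carried the HP1α null alleles (HP1a-/-) and a liver deletion of HP1γ. HP1a_KO livers (n = 2) were HP1a-/- alone, the HP1ab_KO liver (n = 1) was HP1a-/- with a liver deletion of HP1β, and WT livers (n = 3) were wild type. All mutant groups thus share the loss of HP1α, and the promoter that drives the liver deletions is not given in the sources used here. HP1α, HP1β and HP1γ (genes Cbx5, Cbx1 and Cbx3) bind methylated histone tails in heterochromatin, and the study asks what their loss does to liver transcripts.

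In the acute phase response, interleukin-6 (IL-6) made by macrophages binds its receptor and Il6st (gp130) on hepatocytes, JAK kinases phosphorylate STAT3, and STAT3 activates secreted plasma protein genes. SOCS3, itself a STAT3 target, then blocks the receptor and its kinases. Fibrinogen forms clots, haptoglobin captures free haemoglobin, LBP carries bacterial lipopolysaccharide to CD14, and some inter-alpha heavy chains bind hyaluronan in the matrix.

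Levels are normalised reads, the read counts of a gene divided by 1 size factor per library, and groups are given as mean ± SD. HP1a_KO replicate 1 was the shallowest library, with 16266423 gene reads where the rest had 26375545 to 36161177, and the reads behind a single value of the 10 genes ran from 121 (Socs3) to 304442 (Fga). The labels give an animal number per library and nothing on litters or sex, so p-values measure the spread between these samples only. Cbx5 had 743 ± 75.8 reads in HP1ag_KO, 538 ± 53.3 in HP1a_KO and 663 in HP1ab_KO, against 1235 ± 279 in WT. Cbx3 had 349.7 ± 27.5 in HP1ag_KO and Cbx1 had 217 in HP1ab_KO, against 605 ± 59.7 and 917 ± 146 in WT. Summed hepatocyte markers (Alb, Apob and 6 others) lay between 3041710 and 3910480 in every library, so hepatocyte transcripts were abundant in all of them.

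The secreted proteins were higher in HP1a_KO livers than in WT livers, by 1.56 to 2.84 times on group means, and both HP1a_KO libraries lay above all 3 WT libraries for each of the 8. The HP1ab_KO liver lay above WT for the same 8, by 1.19 to 2.22 times, while HP1ag_KO livers overlapped WT for every gene. Of all 13845 genes tested, 14.7% lay above all WT libraries in this way in HP1a_KO and 22.6% in HP1ab_KO. Stat3 and Socs3 overlapped WT in HP1a_KO and HP1ag_KO. HP1a_KO replicate 1 was the highest library for 8 of the 10 genes. Since this is bulk tissue, more cells of a type and more RNA per cell cannot be told apart.

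**Figure D1:**
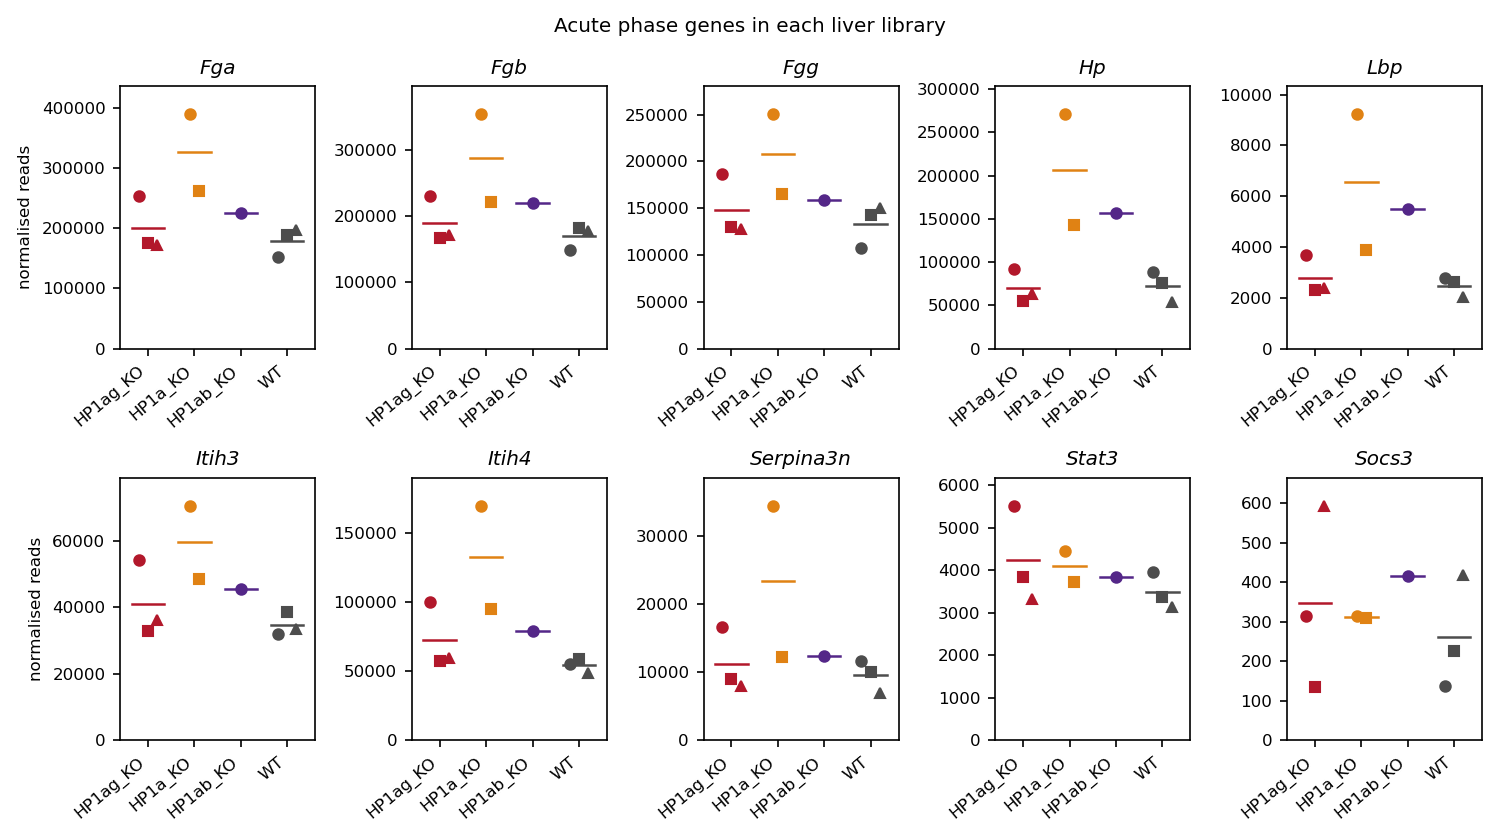
Normalised reads (vertical axes, linear from 0) of each of the 10 genes in the 9 libraries, by group. Circles, squares and triangles are replicates 1, 2 and 3, and a bar is the group mean. HP1a_KO replicate 1 sits highest in the 8 panels of secreted proteins, reaching 271219 for Hp against 53973 to 89108 in WT, while Stat3 and Socs3 show no such separation.

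Fga, Fgb and Fgg encode the 3 chains of fibrinogen and lie side by side on chromosome 3 within 42140 bases (GRCm38). Fga is at chr3:83026076-83033627 on the plus strand (ENSMUSG00000028001), Fgb at chr3:83040141-83049863 on the minus strand (ENSMUSG00000033831) and Fgg at chr3:83007724-83015049 on the plus strand (ENSMUSG00000033860), where a lincRNA lies opposite it. Their promoter windows, 250 bases before to 50 after the RefSeq start (GRCm38.p6, in the direction of the gene), are shown because these genes varied together across the libraries, and those of Itih4 and Itih3, a further neighbouring pair, stand beside them. Capitals mark letters that match TTCNNNGAA (the STAT palindrome), CTGGGAA (an element described in rat acute phase promoters) or TTGCNNAA (C/EBP-like), each searched on both strands, and no matches overlapped.

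Fga, chr3:83025903-83026202, plus strand: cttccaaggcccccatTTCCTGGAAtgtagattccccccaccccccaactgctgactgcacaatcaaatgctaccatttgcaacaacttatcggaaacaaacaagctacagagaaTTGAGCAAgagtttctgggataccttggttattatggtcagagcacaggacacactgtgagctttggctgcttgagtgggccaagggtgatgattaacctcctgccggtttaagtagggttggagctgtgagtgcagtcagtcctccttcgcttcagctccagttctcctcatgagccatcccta
Fgb, chr3:83049814-83050113, minus strand: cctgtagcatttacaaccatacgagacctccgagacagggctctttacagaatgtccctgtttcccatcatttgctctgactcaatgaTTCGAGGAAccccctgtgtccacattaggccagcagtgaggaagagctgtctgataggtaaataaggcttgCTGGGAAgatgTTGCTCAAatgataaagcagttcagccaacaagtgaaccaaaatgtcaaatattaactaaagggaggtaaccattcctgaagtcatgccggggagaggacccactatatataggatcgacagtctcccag
Fgg, chr3:83007474-83007773, plus strand: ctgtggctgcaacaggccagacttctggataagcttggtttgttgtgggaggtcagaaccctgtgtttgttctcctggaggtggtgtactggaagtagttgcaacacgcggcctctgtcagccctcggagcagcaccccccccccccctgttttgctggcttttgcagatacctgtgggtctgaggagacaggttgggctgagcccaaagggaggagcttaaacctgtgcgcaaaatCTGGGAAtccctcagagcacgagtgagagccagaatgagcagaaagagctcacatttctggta
Itih4, chr14:30886226-30886525, plus strand: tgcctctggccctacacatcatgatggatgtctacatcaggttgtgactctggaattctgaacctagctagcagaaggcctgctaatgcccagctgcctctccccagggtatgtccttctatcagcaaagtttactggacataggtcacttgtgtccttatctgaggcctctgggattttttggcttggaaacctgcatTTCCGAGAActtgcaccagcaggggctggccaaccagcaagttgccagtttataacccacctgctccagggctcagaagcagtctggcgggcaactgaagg
Itih3, chr14:30923538-30923837, minus strand: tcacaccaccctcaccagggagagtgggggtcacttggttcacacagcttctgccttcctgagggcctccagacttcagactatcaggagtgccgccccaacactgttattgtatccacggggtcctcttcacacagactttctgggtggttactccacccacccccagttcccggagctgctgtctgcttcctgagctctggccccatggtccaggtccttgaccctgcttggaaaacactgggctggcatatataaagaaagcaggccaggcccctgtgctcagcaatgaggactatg

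Of the 10 genes, 8 had a promoter in the RefSeq table, and Hp and Lbp are named only. TTCNNNGAA stood in 4 of the 8, at bases -234 to -226 of Fga, -162 to -154 of Fgb, -51 to -43 of Itih4 and -154 to -146 of Socs3, counted from the start, and in 8.30% of all 32851 promoters of that table. CTGGGAA stood in Fgb (-91 to -85) and Fgg (-13 to -7), and in 11.1% of all promoters. TTGCNNAA stood in Fga (-135 to -128, opposite strand) and Fgb (-80 to -73), and in 10.8% of all promoters. The windows of Itih3, Serpina3n and Stat3 held none of the 3. For some genes the RefSeq start is not the start of the gene as given here. The whole Socs3 window, chr11:117969317-117969616, lies inside the gene as given below, its match included. These are matches of letters, not mapped binding sites.

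Fga had 252542, 175651 and 171912 reads in HP1ag_KO replicates 1, 2 and 3, 389351 and 261903 in HP1a_KO replicates 1 and 2, 225218 in HP1ab_KO, and 151566, 188388 and 197223 in WT. Both HP1a_KO livers and the HP1ab_KO liver lay above every WT liver, and so did 1 of the 3 HP1ag_KO livers. Reads of Fgb numbered 230413, 166426 and 170610.0 in HP1ag_KO, 353504 and 221088 in HP1a_KO, 218849 in HP1ab_KO, and 148168, 182459 and 177500.0 in WT. For Fgg they numbered 186726, 130022 and 127675 in HP1ag_KO, 250422 and 164569 in HP1a_KO, 158991 in HP1ab_KO, and 107484, 142420.0 and 150098 in WT. The order of the libraries was nearly that of Fga in both, with HP1a_KO replicate 1 on top and WT replicate 1 lowest. Together the 3 chains took 2.52, 1.60 and 1.69% of the reads of HP1ag_KO libraries, 3.33 and 2.16% in HP1a_KO, 2.09% in HP1ab_KO, and 1.39, 1.78 and 1.81% in WT.

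The 3 chains assemble in equal numbers, and their transcripts kept near-constant proportions. Per kb of exon, Fga over Fgb lay between 1.28 and 1.50 over the 9 libraries and Fgg over Fgb between 1.29 and 1.54, ranges of 1.18 and 1.19 times, while the level of Fgb itself spanned 2.39 times. On the log2(normalised reads + 1) scale, on which all differences below are given with their SE, HP1a_KO minus WT was 0.84 ± 0.28 for Fga, 0.73 ± 0.28 for Fgb and 0.62 ± 0.28 for Fgg. These did not pass limma over all 13845 genes tested (adjusted p = 0.457, 0.457 and 0.501). For HP1ag_KO minus WT they were 0.15 ± 0.25, 0.15 ± 0.25 and 0.14 ± 0.25, and for HP1ab_KO minus WT 0.34 ± 0.36, 0.38 ± 0.35 and 0.27 ± 0.36.

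**Figure D2:**
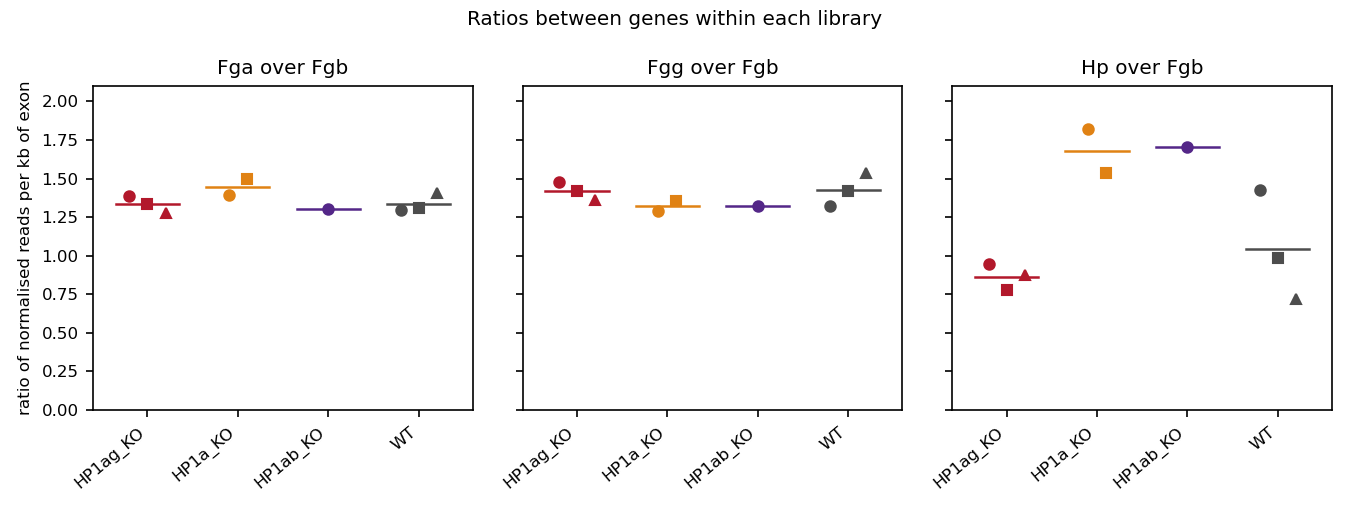
Ratio of normalised reads per kb of exon (vertical axis) between Fga and Fgb, Fgg and Fgb, and Hp and Fgb in each of the 9 libraries, by group, with replicates as circles, squares and triangles and the group mean as a bar. The fibrinogen ratios stay between 1.28 and 1.54, and Hp over Fgb runs from 0.721 in a WT library to 1.82 in HP1a_KO replicate 1.

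Hp (ENSMUSG00000031722, chr8:109575128-109579172, minus strand) encodes haptoglobin, which binds free haemoglobin for uptake by the macrophage receptor CD163. It had 91764, 54474 and 62758 reads in HP1ag_KO, 271219 and 142893 in HP1a_KO, 157208 in HP1ab_KO, and 89108, 75735 and 53973 in WT. Both HP1a_KO livers and the HP1ab_KO liver stood above all HP1ag_KO and WT livers, which overlapped each other. Group means were 69665 ± 19581 in HP1ag_KO, 207056 ± 90739.9 in HP1a_KO and 72939 ± 17734 in WT. Of the 10 genes Hp had the widest difference between HP1a_KO and WT, 1.46 ± 0.35 (limma adjusted p = 0.397). DESeq2 on the recovered reads called it higher in HP1a_KO, by 1.51 (adjusted p = 0.00324), and higher in 7 of 8 fits that each left out 1 library. Without HP1a_KO replicate 1 the DESeq2 difference was 0.97 and not called (adjusted p = 1).

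Unlike the fibrinogen chains, Hp did not hold a constant ratio to Fgb. The ratio of Hp to Fgb per kb of exon was 0.945, 0.777 and 0.873 in HP1ag_KO, 1.82 and 1.53 in HP1a_KO, 1.70 in HP1ab_KO, and 1.43, 0.985 and 0.721 in WT. Both HP1a_KO livers and the HP1ab_KO liver lay above every WT liver, although the ratio also spread widely within WT. HP1ag_KO livers lay inside the WT range. Hp minus WT was 1.14 ± 0.44 in HP1ab_KO and -0.07 ± 0.31 in HP1ag_KO (limma adjusted p = 0.999 and 0.972).

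Lbp (ENSMUSG00000016024, chr2:158306493-158332852, plus strand) encodes the plasma protein that hands lipopolysaccharide to CD14 and TLR4. It had 3674, 2306 and 2375 reads in HP1ag_KO, 9231 and 3865 in HP1a_KO, 5510.4 in HP1ab_KO, and 2779, 2619.8 and 2033 in WT. As with Hp, the HP1ab_KO liver lay between the HP1a_KO livers and above every other group. Its HP1a_KO mean of 6548 ± 3794 was 2.64 times the WT mean of 2477 ± 393, a difference of 1.28 ± 0.36 (limma adjusted p = 0.432). DESeq2 called Lbp higher in HP1a_KO, by 1.40 (adjusted p = 0.0182), in 6 of 8 fits without 1 library. The call was lost without WT replicate 3, and without HP1a_KO replicate 1 the difference was 0.64 (adjusted p = 1). In HP1ab_KO the difference from WT was 1.17 ± 0.45, and in HP1ag_KO 0.15 ± 0.32.

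Itih4 and Itih3 lie side by side on chromosome 14 within 37285 bases and are read toward each other. Their products are heavy chains of the inter-alpha-trypsin inhibitor family. Itih4 (ENSMUSG00000021922, chr14:30886476-30902353, plus strand) had 100461, 57259.7 and 59280.5 reads in HP1ag_KO, 170118 and 94886 in HP1a_KO, 79092 in HP1ab_KO, and 55433, 59007 and 48763 in WT. Here 2 of the 3 HP1ag_KO libraries and every other mutant library lay above all WT libraries. Itih3 (ENSMUSG00000006522, chr14:30908572-30923760, minus strand) had 54249.7, 32879 and 36265 reads in HP1ag_KO, 70677 and 48671 in HP1a_KO, 45664 in HP1ab_KO, and 32014, 38603 and 33603 in WT. HP1a_KO minus WT was 1.23 ± 0.32 for Itih4 and 0.76 ± 0.25 for Itih3 (limma adjusted p = 0.403 and 0.457). DESeq2 called Itih4 higher, by 1.28 (adjusted p = 0.0100), in 6 of 8 fits without 1 library, but neither without WT replicate 3 nor without HP1a_KO replicate 1 (0.80, adjusted p = 1). Itih4 over Itih3 per kb of exon was 1.83, 1.72 and 1.61 in HP1ag_KO, 2.37 and 1.92 in HP1a_KO, 1.71 in HP1ab_KO, and 1.71, 1.51 and 1.43 in WT.

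Serpina3n (ENSMUSG00000021091, chr12:104406729-104414329, plus strand) encodes a mouse counterpart of human alpha-1-antichymotrypsin and has close paralogs beside it, so that reads may be split between copies and its level is uncertain. Its reads were 16672, 8945 and 8018 in HP1ag_KO, 34474 and 12195 in HP1a_KO, 12399.9 in HP1ab_KO, and 11670.2, 9952 and 6912 in WT. One HP1a_KO library stood far above the rest, and the other exceeded the highest WT library only narrowly. The difference between HP1a_KO and WT was 1.14 ± 0.47 with both HP1a_KO libraries (limma adjusted p = 0.476) and 0.36 in DESeq2 without HP1a_KO replicate 1.

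Stat3 itself (ENSMUSG00000004040, chr11:100885098-100939540, minus strand) differed little between groups. It had 5515, 3845 and 3325 reads in HP1ag_KO, 4455 and 3725 in HP1a_KO, 3843 in HP1ab_KO, and 3962, 3356 and 3123 in WT. The highest library was HP1ag_KO replicate 1, and each mutant group overlapped WT. Differences from WT were 0.25 ± 0.19 in HP1ag_KO, 0.23 ± 0.21 in HP1a_KO and 0.15 ± 0.27 in HP1ab_KO (limma adjusted p = 0.777, 0.713 and 0.999). Stat3 overlaps Stat5a on the opposite strand, and the strand setting of the counting is not given, so reads of the overlap may go to either, although Stat5a averaged only 364 reads. STAT3 acts through phosphorylation, which transcript levels do not measure.

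Socs3 (ENSMUSG00000053113, chr11:117966079-117970047, minus strand) was the least expressed and most scattered of the 10. Its reads were 314, 136 and 594 in HP1ag_KO, 316 and 309 in HP1a_KO, 416 in HP1ab_KO, and 137, 227 and 418 in WT. Within HP1ag_KO alone the values spanned more than between any group means, and no group stood apart. Differences from WT were 0.32 ± 0.55 in HP1ag_KO, 0.41 ± 0.61 in HP1a_KO and 0.82 ± 0.78 in HP1ab_KO (limma adjusted p = 0.909, 0.831 and 0.999).

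Per kb of exon the 10 genes covered a wide range of levels. Averaged over the 9 libraries, Fgg (75299 normalised reads per kb), Fga (74336), Hp (69125) and Fgb (54506) ranked 25, 26, 28 and 33 among 22257 genes with a known length. Itih4 (21810), Itih3 (11992) and Serpina3n (6527) followed, then Lbp (791), Stat3 (409.9) and Socs3 (110.1). Fgg lay above Fga in every HP1ag_KO, HP1ab_KO and WT library and below it in both HP1a_KO libraries. Hp and Fgb changed places within WT (55484.5 against 38889 in replicate 1, 33607 against 46588 in replicate 3), so these neighbours do not differ beyond their spread. In HP1a_KO, Hp came first with 128926 per kb on average, ahead of Fga with 108182 and Fgg with 99138.

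Across all genes, limma called 0 of 13845 (0%) in each of the 4 comparisons, as did edgeR (0%), and none of the 10 genes passed in either. For HP1a_KO against WT all 10 differences were positive, with a median of 0.80 against -0.00 over all genes, and 7 of the 10 reached an unadjusted p under 0.05 in limma, each of them higher. Of all genes 5.48% did so in that direction. The libraries did not overlap for 8 of the 10, all higher in HP1a_KO, which held for 14.7% of all genes. DESeq2 called Hp, Itih4 and Lbp higher, against 0.502% of its 12750 genes, and Fga lay just past the threshold (0.86, adjusted p = 0.0516). Without HP1a_KO replicate 1, which leaves that group 1 library, DESeq2 called 0 of the 10, and the limma median was 0.44 with all 10 still positive. Without HP1a_KO replicate 2 the limma median was 1.10.

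In HP1ab_KO against WT, where a single library has no replicate check, all 10 differences were also positive, with a median of 0.41. Hp and Lbp reached an unadjusted limma p under 0.05, which 2.05% of all genes did in that direction. DESeq2 called none of the 10 (0.0796% of all genes were called). The HP1ab_KO liver lay above all WT livers for the 8 secreted proteins, as 22.6% of all genes did. The comparisons with WT share the same WT livers, so their values are set side by side and not taken as independent.

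**Figure D3:**
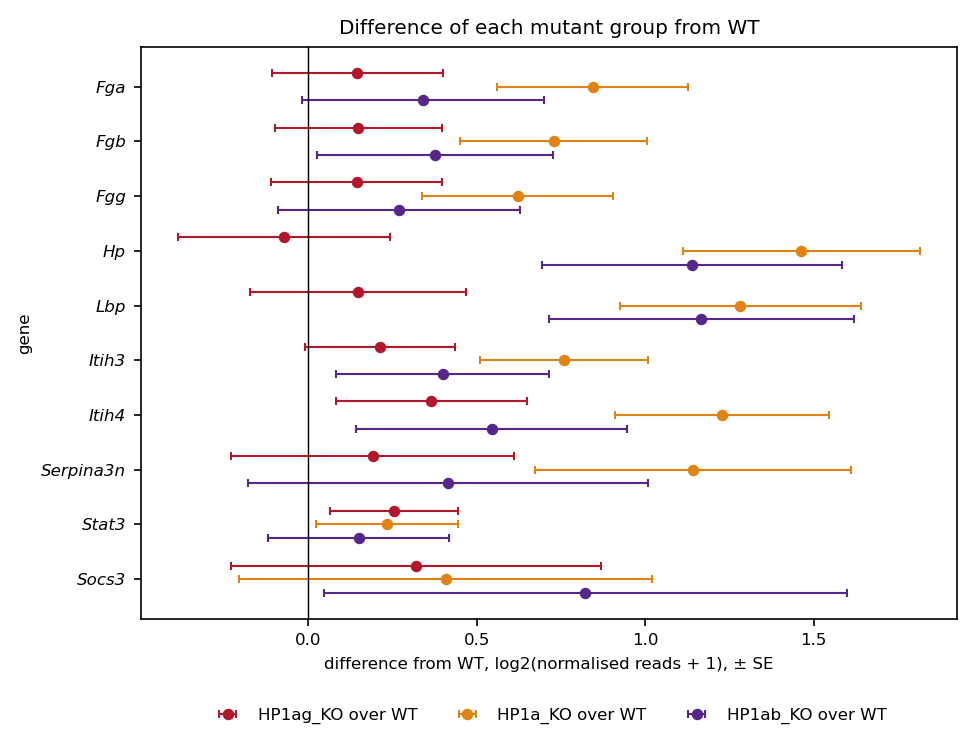
Difference of HP1ag_KO, HP1a_KO and HP1ab_KO from WT for each of the 10 genes, on the log2(normalised reads + 1) scale (horizontal axis), as limma estimates with bars of ± 1 SE. HP1a_KO lies farthest right for the 8 secreted proteins, up to 1.46 for Hp, HP1ab_KO comes close to it for Hp and Lbp, and HP1ag_KO stays between -0.07 and 0.37.

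In HP1ag_KO against WT the median was 0.17, with 9 differences positive and a range of -0.07 for Hp to 0.37 for Itih4. None of the 10 reached an unadjusted p under 0.05 in limma (7.58% of all genes), DESeq2 called none of them (0.716% of all genes), and none had libraries that did not overlap (6.46% of all genes higher and 7.05% lower). One library carried the positive signs. HP1ag_KO replicate 1 exceeded every WT library for 9 of the 10 genes, replicate 2 for 0 and replicate 3 for 2, where 21.7 to 26.5% of all genes did so per library. Without HP1ag_KO replicate 1, 3 of 10 differences were positive and the median was -0.02. Between animals with neighbouring numbers the picture was as uneven: HP1ag_KO replicate 1 minus WT replicate 3 was positive for 9 genes with a median of 0.73, and HP1ag_KO replicate 3 minus WT replicate 2 for 2 genes with a median of -0.11.

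HP1ag_KO was set directly against HP1a_KO, since both lack HP1α. Here 9 of 10 differences were negative, with a median of -0.64. The widest were -1.53 ± 0.35 for Hp and -1.13 ± 0.36 for Lbp (limma adjusted p = 0.141 and 0.193), and Stat3 (0.02 ± 0.21) and Socs3 (-0.09 ± 0.61) lay near 0. In limma 4 of the 10 had an unadjusted p under 0.05, all lower in HP1ag_KO, as did 8.38% of all genes in that direction. Libraries did not overlap for Hp, Fga and Lbp, again lower in HP1ag_KO, as for 19.2% of all genes. DESeq2 called Hp (-1.57, adjusted p = 0.000579) and Lbp (-1.23, adjusted p = 0.0209) lower, against 1.74% of all genes. Hp was called in 7 and Lbp in 5 of 8 fits without 1 library, and neither without HP1a_KO replicate 1, where the differences were -1.04 and -0.47.

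Further positive acute phase genes were examined as a list of 22, chosen, like the other lists, with earlier results of these data known. In HP1a_KO against WT 20 of the 22 were positive, with a median of 1.02 (0.62 without HP1a_KO replicate 1). Of these 22, 16 had an unadjusted limma p under 0.05 (10.1% of all genes in either direction), and 6 were called higher by DESeq2 (0.502% of all genes). Hpx, the haem scavenger haemopexin, had 149199 ± 16796 reads in HP1ag_KO, 309229 ± 110619 in HP1a_KO and 242489 in HP1ab_KO, against 132881 ± 15820.1 in WT (HP1a_KO minus WT 1.22, DESeq2 adjusted p = 0.000259). The orosomucoid gene Orm1, a plasma carrier of lipophilic compounds, was called at 1.27 (adjusted p = 0.00188), and the other 4 called were Saa3 (3.68), C4b (0.53), Il18bp (0.89) and Cp (0.64). Without HP1a_KO replicate 1 DESeq2 called none of the 6 (adjusted p = 0.196 to 1), and the differences were 0.51 for C4b, 0.80 for Hpx, 0.66 for Orm1, 1.65 for Saa3, 0.54 for Il18bp and 0.36 for Cp. C4b thus stayed about as large, and the others were smaller and still positive. In HP1ag_KO against HP1a_KO, 20 of 22 were negative (median -0.83), and DESeq2 called 6 lower (1.74% of all genes). Of these, Orm1 (-1.46) and Saa3 (-4.43) were called in all 8 fits without 1 library, Hpx (-1.05) in 7, Serpina10 (-0.86) in 5, and C4b (-0.42) and Cp (-0.56) in 2.

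Serum amyloid Saa2, the widest difference of the list (7.11 ± 1.43, limma adjusted p = 0.397), had 7154, 262 and 198 reads in HP1ag_KO, 119327 and 25419 in HP1a_KO, 9374 in HP1ab_KO, and 583, 447 and 241 in WT. Copies of its family may share reads, and DESeq2 did not call Saa2 in HP1a_KO against WT. It separated HP1ag_KO replicate 1 from the other 2 HP1ag_KO livers in the same way as the fibrinogen genes did, by a much wider step. The alpha-1-antitrypsin copies Serpina1b (-0.27 ± 0.20) and Serpina1a (-0.06 ± 0.20) were the 2 negative ones.

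Among 11 negative acute phase genes, such as Alb and Ttr, which fall in a classical acute phase, 8 were positive in HP1a_KO against WT and the median was 0.12, with 0.27 without HP1a_KO replicate 1 and 0.0085 without replicate 2. Transferrin (Trf) was called higher by DESeq2 (0.49, adjusted p = 0.0144), in 3 of 8 fits without 1 library, and not without HP1a_KO replicate 1 (0.36, adjusted p = 1). Fetub lay at 0.24 ± 0.13, Ttr at -0.28 ± 0.23 and Apoa4 at -0.23 ± 0.59. Of 20 other clotting and fibrinolysis genes 14 were positive, with a median of 0.24 and 0 called by DESeq2, which called only 0.502% of all genes higher. Pros1 (protein S) lay at 0.29 ± 0.11, F13b at -0.23 ± 0.10 and Klkb1 at -0.19 ± 0.14. The other inter-alpha genes gave 3 positive of 4 tested, with Ambp, the precursor of the light chain bikunin, at 0.54 ± 0.18 and Itih1 at 0.31 ± 0.13. Fibrinogen folding and secretion chaperones (7 genes) had a median of 0.03 (-0.078 without HP1a_KO replicate 1), from Hspa5 at -0.20 to Pdia3 at 0.16.

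**Figure D4:**
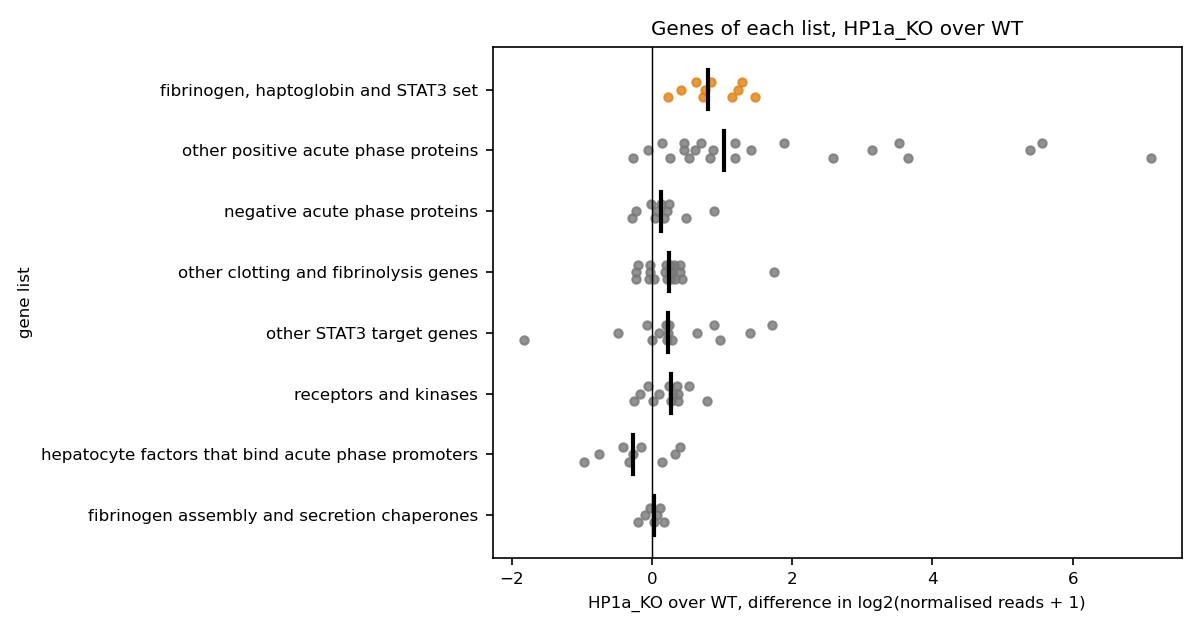
Differences of HP1a_KO from WT on the log2(normalised reads + 1) scale (horizontal axis) for each tested gene of 8 lists, 1 point a gene, with the list median as a vertical bar. The fibrinogen, haptoglobin and STAT3 set (median 0.80) and the other positive acute phase genes (median 1.02) lie mostly right of 0, and the chaperones (median 0.03) around it.

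The same lists were followed in the other mutant groups. In HP1ab_KO against WT 19 of the 22 other positive acute phase genes were positive, with a median of 0.58, led by the smallest limma p-values of Hpx (0.88 ± 0.34) and the complement factor Cfb (0.39 ± 0.15). Negative acute phase genes had a median of 0.13 there, clotting genes 0.11, inter-alpha genes 0.22, chaperones -0.27, other STAT3 targets 0.09, receptors and kinases 0.21 and hepatocyte factors 0.22. In HP1ag_KO against WT 15 of 22 other positive acute phase genes were positive, with a median of 0.15, Il18bp at 0.56 ± 0.19 and Mt1 at 1.75 ± 0.93. The same medians in HP1ag_KO were -0.09 for negative acute phase genes, 0.00 for clotting genes, 0.08 for inter-alpha genes, -0.05 for chaperones, 0.07 for other STAT3 targets, 0.01 for receptors and kinases and -0.03 for hepatocyte factors. DESeq2 called no gene of any of these lists in either comparison. Among other STAT genes, Stat2 lay at 0.41 ± 0.10 in HP1ag_KO against WT, and DESeq2 called it higher in HP1ag_KO than in HP1a_KO (0.52, adjusted p = 0.0167), in 4 of 8 fits without 1 library and not without HP1a_KO replicate 1, where the difference was about as large (0.50, adjusted p = 0.413).

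Upstream of STAT3, Il6 lay between 0 and 3.75 normalised reads in every library, and Osm, Lif, Il11, Clcf1 and Tnf also had means under 10. Of 3 ligands with enough reads, HP1a_KO minus WT was 0.09 ± 0.25 for Ctf1, -0.09 ± 0.36 for Il1a and -1.06 ± 0.78 for Il1b. Their median of -0.090 was -0.31 without HP1a_KO replicate 1 and 0.059 without replicate 2. Receptors and kinases were positive in 10 of 13, with a median of 0.27 and none called by DESeq2, which called only 0.502% of all genes higher. The IL-6 receptor chain Il6ra lay at 0.78 ± 0.39, Il6st at 0.30 ± 0.17, Il1r1 at 0.53 ± 0.38, Osmr at 0.27 ± 0.25, Il10rb at 0.36 ± 0.16, Tnfrsf1a and Il22ra1 at 0.37, Jak1 at 0.24 ± 0.14, Tyk2 at 0.10 ± 0.14 and Jak2 at 0.01 ± 0.11. Lifr (-0.05 ± 0.37), Il1rap (-0.18 ± 0.18) and Il11ra1 (-0.26 ± 0.18) were negative. Among inhibitors other than Socs3, 3 of 7 tested were positive, with a median of -0.12, which turned to 0.075 without HP1a_KO replicate 1. Socs2 lay at 1.06 ± 0.76, Ptpn6 at 0.20 ± 0.12, Ptpn11 at 0.15 ± 0.11, Ptpn2 at -0.12 ± 0.14, Ptprt at -0.24 ± 0.42, Pias3 at -0.28 ± 0.19 and Cish at -1.06 ± 0.85. Socs1 was too low to test. The other 6 STAT genes were all negative in HP1a_KO, with a median of -0.14 (-0.087 without HP1a_KO replicate 1, with 1 positive) and Stat5a lowest at -0.31 ± 0.26.

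Of 15 other STAT3 target genes tested, 11 were positive in HP1a_KO against WT, with a median of 0.23 (0.13 without HP1a_KO replicate 1 and 0.45 without replicate 2). The leucine-rich glycoprotein gene Lrg1 had 9865, 4527 and 4869.5 reads in HP1ag_KO, 25378 and 13312 in HP1a_KO, 12533 in HP1ab_KO, and 8676, 7580.4 and 5149 in WT. It was the only one called by DESeq2 (1.44, adjusted p = 0.0356), and not without HP1a_KO replicate 1 (0.90, adjusted p = 1) or without WT replicate 2 or 3. Fgl1, a fibrinogen-like protein of hepatocytes, lay at 1.71 ± 0.52, Bcl3 at -0.49 ± 0.17 and Hamp (hepcidin) at -1.83 ± 1.11. Of the targets that act inside the cell, Mcl1 lay at -0.01 ± 0.09 and Cebpb at 0.23 ± 0.22.

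Partners of the secreted proteins were also examined. Of 6 genes of haemoglobin and haem clearance, 5 were positive in HP1a_KO against WT (median 0.42), led by the haptoglobin receptor Cd163 (0.87 ± 0.26) and haem oxygenase Hmox1 (0.78 ± 0.24). Of 9 genes of lipopolysaccharide sensing, 7 were positive (median 0.16, with 0.24 without HP1a_KO replicate 1 and 0.057 without replicate 2), with Nfkbia at 0.45 ± 0.11, Cd14 at 0.53 ± 0.28, Nfkb1 at -0.16 ± 0.13 and Ly96 at -0.25 ± 0.25. Hepatocyte factors that bind acute phase promoters gave 3 positive of 9 and a median of -0.26, which was -0.056 without HP1a_KO replicate 1 and -0.36 without replicate 2. Hnf4a lay at 0.40 ± 0.11 (DESeq2 0.40, adjusted p = 0.0395, not called in any of 8 fits without 1 library, although the difference was 0.48 without HP1a_KO replicate 1) and Foxa2 at -0.76 ± 0.48.

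Genes near the 10 loci were examined for the same difference. Of 64 tested genes within 250 kb, 32 were positive and 32 negative in HP1a_KO against WT, with a median of -0.00, and 4 had an unadjusted p under 0.05 (10.1% of all genes). The 3 tested neighbours of the fibrinogen genes, Lrat, Plrg1 and Rbm46, lay at -0.27, -0.16 and -0.91. Near Hp 3 of 7 were positive, near Lbp 3 of 6, near Serpina3n 2 of 6 and near the Itih pair 10 of 14 (median 0.08, Itih1 included).

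Markers of myeloid cells were highest in the same libraries as the secreted proteins. Kupffer cells are the resident liver macrophages, and 11 of 12 listed markers were in the table, none at 0 in any group. Their summed level was 21444, 14642 and 16566 normalised reads in HP1ag_KO, 23870 and 20500 in HP1a_KO, 23465 in HP1ab_KO, and 13973, 15099 and 16034 in WT. Both HP1a_KO livers lay above all WT livers for 9 of the 11 (14.7% of all genes), and the median difference was 0.57 (0.50 without HP1a_KO replicate 1). Neutrophil markers (12 listed) summed to 249.7, 61.7 and 185 in HP1ag_KO, 550.4 and 367 in HP1a_KO, 209 in HP1ab_KO, and 78.3, 82.9 and 66.5 in WT. Both HP1a_KO livers lay above all WT livers for 10 of the 12, but only 4 of the 12 had enough reads to test. The share of 14.7% covers genes with a mean of at least 10, so it is no measure for the markers below that. In the shallow HP1a_KO replicate 1 a single read counted 1.83. The defining marker Ly6g was at 0 in every HP1ag_KO, HP1ab_KO and WT library, and S100a8 reached 91.7 in HP1a_KO replicate 1. DESeq2 called Prtn3 (3.39, adjusted p = 0.0110) and S100a8 (2.34, adjusted p = 0.00916) higher in HP1a_KO than in WT (0.502% of all genes). Genes were tested if their mean over all 9 libraries was at least 10. Low markers could thus pass through their high HP1a_KO values alone, which limits what these calls show. Prtn3 was called in 6 and S100a8 in 5 of 8 fits without 1 library. Neither was called without HP1a_KO replicate 1, where the differences were 2.75 and 2.05. Stellate cell markers summed to 14603, 14456 and 15616 in HP1ag_KO, 19397 and 18465 in HP1a_KO, 17361 in HP1ab_KO, and 12214, 15793 and 13669 in WT. For 6 of these 11 markers both HP1a_KO livers lay above all WT livers (14.7% of all genes). Here too DESeq2 called 2 higher in HP1a_KO, Col1a1 (1.47, adjusted p = 0.00243) and Col1a2 (0.88, adjusted p = 0.0191), in 7 and 5 of 8 fits without 1 library. With HP1a_KO replicate 1 left out, their differences were 1.25 and 0.77. Erythroid markers summed to 7537, 5475.5 and 9386 in HP1ag_KO, 11339 and 13357 in HP1a_KO, 20077 in HP1ab_KO, and 7420.5, 8336 and 18253 in WT. In HP1a_KO against WT the median differences of T cell (3 tested), B cell (5), sinusoidal endothelial (8) and cholangiocyte (5) markers were 0.09, 0.07, 0.08 and 0.12. Without HP1a_KO replicate 1 they were 0.050, 0.26, -0.021 and 0.22, and without HP1a_KO replicate 2 they were 0.075, -0.26, 0.15 and -0.27, so the signs of the last 3 turned with 1 library. The part of any of these cells in the levels of the 10 genes was not tested.

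**Figure D5:**
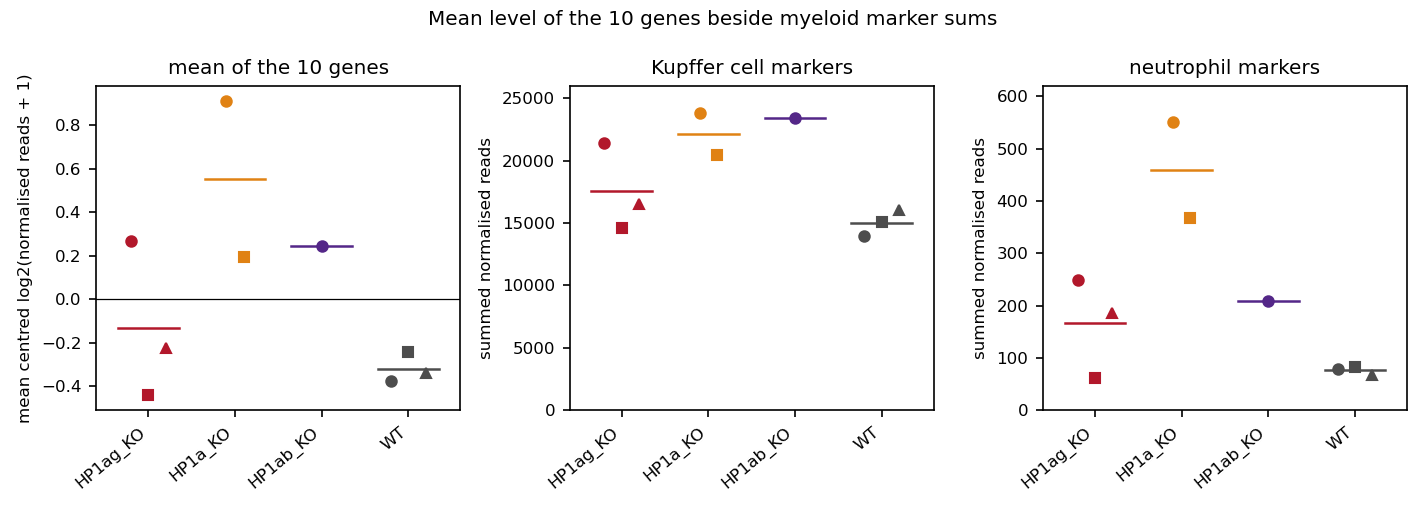
Left, mean of the 10 genes in each library after centring each gene on its mean over the 9 libraries, in log2(normalised reads + 1). Middle and right, summed normalised reads of 11 Kupffer cell markers and 12 neutrophil markers, with replicates as circles, squares and triangles and group means as bars. In all 3 panels HP1a_KO replicate 1 is the highest library, HP1ag_KO replicate 1 stands above the other 2 HP1ag_KO libraries, and the WT libraries and HP1ag_KO replicate 2 lie at the low end.

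Averaged over the 10 genes, the centred log2 level was 0.27, -0.44 and -0.22 in HP1ag_KO, 0.91 and 0.19 in HP1a_KO, 0.24 in HP1ab_KO, and -0.37, -0.24 and -0.34 in WT. The genes most like this profile over the 9 libraries, by mean absolute difference, were Spi1 (0.0758), Cd5l (0.0848), Nckap1l (0.0953), Vav1 (0.0954), C3 (0.0980), Ifitm2 (0.0999), Itgb2 (0.103) and Bin2 (0.106), where the median of 13835 other genes was 0.396. Spi1 encodes the myeloid factor PU.1, Cd5l is secreted by macrophages and C3 is a complement and acute phase protein. Spi1 had 139, 90.8 and 101 reads in HP1ag_KO, 204 and 145 in HP1a_KO, 148 in HP1ab_KO, and 84.5, 92.4 and 89.0 in WT. Among the 10 genes, Itih3 (0.0716) and Fgb (0.0954) lay closest to the mean profile and Hp (0.377) and Socs3 (0.541) farthest. Each of the 10 is part of that mean, so these distances are not comparable with those of the other genes. The measure also grows with the size of a gene's changes. The points share libraries and depths, so this likeness is a description.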

How the data were processed

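Total RNA of dissected livers was depleted of ribosomal RNA and sequenced as stranded libraries, per the labels' protocols. Per the submitters' processing notes the tools named, with no order or role, were DESeq2 1.0.19, HTSeq 0.5.4p3, Bowtie2 2.1.0, TopHat2 2.0.10 and CASAVA 1.8.2, and the build mm10. The strand setting of HTSeq is not given in the sources used here. The authors deposited a signal per gene and library, labelled as normalised counts. Every value was a whole multiple, within 0.1 read, of what 1 read is worth (100% of values), so read counts were recovered from the deposited signal. Size factors were 0.545 to 1.25, and the library with fewest reads, HP1a_KO replicate 1, is the least precise.

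The test was limma 3.58.1 with a mean trend on log2(value + 1), over genes with a mean of at least 10, with 4 groups in 1 fit and Benjamini-Hochberg adjustment at 0.05. Fold changes on that scale understate the change of low genes. DESeq2 1.42.0 and edgeR 4.0.16 (R 4.3.3) on the recovered counts were alternatives, with other pseudocounts, filters, scalings, variance models and left-out replicates. Scripts were tested on simulated data with known changes. For HP1a_KO against WT, DESeq2 made 34 false calls there, limma 7 and edgeR 5. DESeq2 also found more of the smaller changes put in, 50% against 29% for limma and 30% for edgeR. Genes called by DESeq2 alone are thus less certain. Coordinates and exon lengths came from GENCODE (GRCm38), with 22257 gene IDs matched, and promoters from RefSeq (GRCm38.p6). Replicate pairs differed by more than sampling noise (52.9 to 136 as chi-square over its degrees of freedom).

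The members and lists were chosen with earlier results of these data known. All 10 genes, tested ligands, receptors and inhibitors, up to 2 genes a direction with the smallest limma p from each other list, the 8 genes most like the mean profile and up to 2 neighbours a locus were named by rule. Further genes called by DESeq2, Mcl1, Cebpb, S100a8 and 1 neighbour of the fibrinogen genes, Rbm46, were chosen after their values were seen, as was leaving out libraries in DESeq2. Some genes that the rule names are not reported here.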

Additional observations from a re-analysis of the deposited data

How the results depend on the processing

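With limma and all libraries no gene was called in any of the 4 comparisons, and this count moved with the method. DESeq2 on recovered reads called 99 genes in HP1ag_KO against WT, 89 in HP1a_KO against WT, 11 in HP1ab_KO against WT and 458 in HP1ag_KO against HP1a_KO. A pseudocount of 5 gave 1 in HP1a_KO against WT, no filter gave 54 in HP1ab_KO against WT, and no mean trend gave 7 in HP1ag_KO against HP1a_KO. Leaving out 1 library at a time gave 0 to 2, 0 to 5, 0 to 2 and 0 to 78 genes in the same order of comparisons, with 78 without WT replicate 1. The cause was not tested.

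Without 1 library the limma median of the 10 genes lay between 0.44 (without HP1a_KO replicate 1) and 1.10 (without HP1a_KO replicate 2) in HP1a_KO against WT, 0.39 and 0.47 in HP1ab_KO against WT, -0.02 and 0.29 in HP1ag_KO against WT, and -0.95 and -0.26 in HP1ag_KO against HP1a_KO, and in DESeq2 without HP1a_KO replicate 1 it was 0.44 in HP1a_KO against WT and -0.23 in HP1ag_KO against HP1a_KO. Signs turned mainly in HP1ag_KO against WT. There limma gave -0.29 to 0.088 for Hp, -0.034 to 0.24 for Fga, -0.0014 to 0.23 for Fgb, -0.034 to 0.24 for Fgg, -0.069 to 0.27 for Lbp, -0.0041 to 0.36 for Itih3, -0.13 to 0.39 for Serpina3n and -0.19 to 0.87 for Socs3. DESeq2 without HP1ag_KO replicate 1 gave -0.043 for Fga, -0.0073 for Fgb, -0.049 for Fgg, -0.082 for Lbp, -0.0070 for Itih3 and -0.17 for Serpina3n. With HP1ag_KO replicate 3 left out it gave 0.0036 for Hp and -0.21 for Socs3, and for Hp 0.083 with HP1ag_KO replicate 2 and 0.10 with WT replicate 1 left out. Hp was 0.25 within pairs of neighbouring animal numbers. In HP1a_KO against WT, Socs3 was -0.046 in DESeq2 without WT replicate 1. In HP1ag_KO against HP1a_KO, limma without 1 library gave -0.19 to 0.18 for Stat3 and -0.59 to 0.47 for Socs3. Stat3 was -0.075 and -0.19 in DESeq2 without HP1a_KO replicate 2 and HP1ag_KO replicate 1. Socs3 was 0.0075 under equal totals, 0.16 in DESeq2 and edgeR, 0.16 in DESeq2 without any 1 WT library, and 0.17, 0.14, 0.23 and 0.54 in DESeq2 without HP1a_KO replicate 1, HP1a_KO replicate 2, HP1ag_KO replicate 1 and HP1ag_KO replicate 2.

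No fit with a replicate block was made, because the labels give no replicate numbers shared between groups. Within the 2 pairs of neighbouring animal numbers, given as values with no test, the median of the 10 genes in HP1ag_KO against WT was 0.33, against 0.17 over all libraries. Of the scalings, equal totals moved the median of all genes most, to 0.08 from -0.02 in HP1ag_KO against HP1a_KO. HP1ab_KO is 1 library, assumed to vary like the others, and Socs3, with as few as 121 reads, has the least depth.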
